A study of Homo sapiens with 3 samples.

Results

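The 10 genes described here encode the enzymes that start the breakdown of leucine, isoleucine and valine, together with the kinase and phosphatase that set the activity of the pathway's committed step. They were taken by symbol through the Ensembl identifiers of GENCODE release 44, and all 10 were found among the 62754 genes of the deposited table. RNA was sequenced in 3 replicates of MCF10A cells, an established line of human mammary epithelium that does not form tumors. Per the labels, all 3 replicates carry an empty doxycycline-inducible retroviral vector (Retro-X Tet-One) without an inserted gene, were selected with puromycin and were harvested without doxycycline. The replicates belong to 1 condition and 1 cell line and were taken as 1 batch, so no groups can be compared. Nothing in the labels says that they came from separate cultures.

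Branched-chain amino acids are first transaminated by BCAT1 in the cytosol or BCAT2 in mitochondria, which gives branched-chain keto acids and glutamate. The mitochondrial branched-chain keto acid dehydrogenase complex then decarboxylates the keto acids irreversibly: BCKDHA and BCKDHB form its decarboxylase component, DBT is the lipoyl-bearing core that passes the acyl group to coenzyme A, and DLD, shared with other complexes, reoxidizes the lipoyl group. BCKDK phosphorylates BCKDHA and switches the complex off, PPM1K removes this phosphate, and IVD, MCCC1 and MCCC2 carry the leucine branch on from isovaleryl-CoA.

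BCKDHA calls for a look at sequence before its values, because most of its exons are also annotated as exons of a second gene. In GENCODE release 44 on hg38, BCKDHA lies on the plus strand at chr19:41397808-41425002. Of the 1742 bases of its canonical transcript, 1623 (93.2%) overlap exons of ENSG00000255730, a protein-coding gene of 2 transcripts annotated on the same strand from 41350853 to 41425001. Only exon 1 of BCKDHA, with 118 bases, and 1 base at the end of exon 9 belong to BCKDHA alone, whereas exons 2 to 8 are shared in full. Over all 8 annotated BCKDHA transcripts, 1660 of 2251 exonic bases (73.7%) are shared. The 108 coding bases of exon 1 (chr19:41397828-41397935, plus strand) are shown first, with the start codon in capitals. They are the part of the canonical coding sequence that is annotated to BCKDHA alone. The first 60 bases of exon 2 (chr19:41410637-41410696, plus strand) follow as an example of sequence that both genes hold.
BCKDHA exon 1, coding: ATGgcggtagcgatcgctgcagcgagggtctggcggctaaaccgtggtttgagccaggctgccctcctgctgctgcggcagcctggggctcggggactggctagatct
BCKDHA exon 2, first bases: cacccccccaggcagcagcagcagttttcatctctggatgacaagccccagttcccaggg

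**Figure D1:**
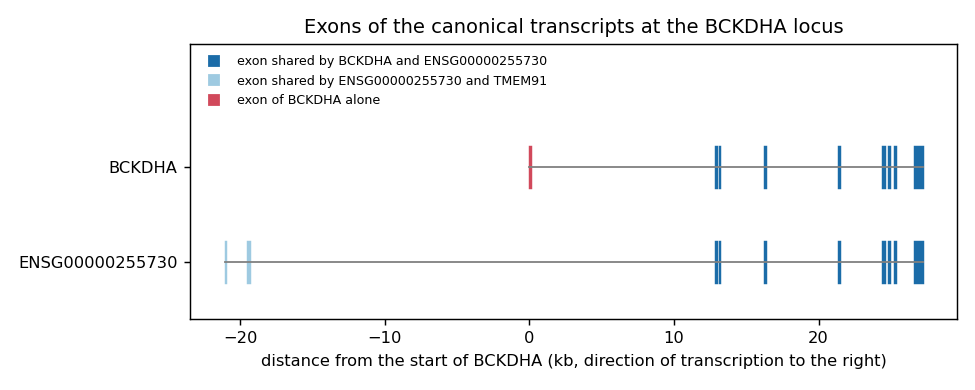
Exons of the canonical transcripts of BCKDHA and of the overlapping gene ENSG00000255730 against the distance from the start of BCKDHA in kb. Boxes are exons, coloured by the genes that hold them, and only exon 1 of BCKDHA stands alone, while all exons of ENSG00000255730 are shared.

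Values are given in TPM, in which each gene's reads are divided by its length and the quotients of a replicate are scaled to sum to 1000000. A TPM value is thus a level per length. With the longest transcript of each gene as its length, 100% of the values were whole multiples of the smallest step, which was taken as 1 read. This gave 15273329, 15446347 and 11166546 reads on annotated genes in replicates 1, 2 and 3. The cells, labelled as breast epithelial, held reads on all 6 epithelial markers looked up, which summed to between 11460 and 14794 TPM. Most of this sum came from KRT5, KRT14 and KRT17, at means of 6612, 4144 and 2669 TPM. TP63, CDH1 and EPCAM were at 49.8, 29.1 and 14.6 TPM. The hormone receptors ESR1 and PGR summed to at most 0.104 TPM. Of the 8 markers of other tissues, ALB, CKM, MYH2 and PDGFRA had 0 reads, and COL1A1 and PECAM1 were above 1 TPM, at 4.96 and 1.77 TPM. RN7SL1, a short non-coding RNA, took 4.93%, 5.66% and 15.1% of all TPM in replicates 1, 2 and 3, which lowers the TPM of other genes in replicate 3. The pairs of replicates differed by more than sampling noise, with a mean chi-square per gene between 6.50 and 23.1 where counting error alone gives 1. Genes with many reads can raise this mean, so it is no measure of a typical gene. Over the 3 replicates together the chi-square was 2515 for KRT5 and 2.06 for DBT.

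Of the 10 genes, 8 reached 1 TPM in the mean, the cutoff by which the study called an enzyme expressed, and all 8 were above it in each of the 3 replicates. Over all 20046 protein-coding genes the share at or above 1 TPM was 56.7%. The 2 genes below the cutoff were BCKDHA and BCAT1, both below it in every replicate. In order of the mean, MCCC2 was highest, followed by BCKDK, BCAT2, IVD, MCCC1, BCKDHB, DBT, PPM1K, BCKDHA and BCAT1. Of the 9 pairs of neighbours in this order, 4 did not overlap between replicates: MCCC2 above BCKDK, MCCC1 above BCKDHB, PPM1K above BCKDHA and BCKDHA above BCAT1. The genes from BCKDK to MCCC1 overlapped with their neighbours, as did BCKDHB, DBT and PPM1K. Genes further apart in the order could still differ: BCKDK, at 40.8 TPM or more, did not overlap IVD, at 35.5 TPM or less, and BCAT2, at 32.0 TPM or more, did not overlap MCCC1, at 31.4 TPM or less. With canonical transcript lengths 5 of the 9 pairs of neighbours did not overlap, and with TPM scaled to protein-coding genes 6 did not. In bulk RNA, a low level in all cells and expression in few cells cannot be told apart.

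**Figure D2:**
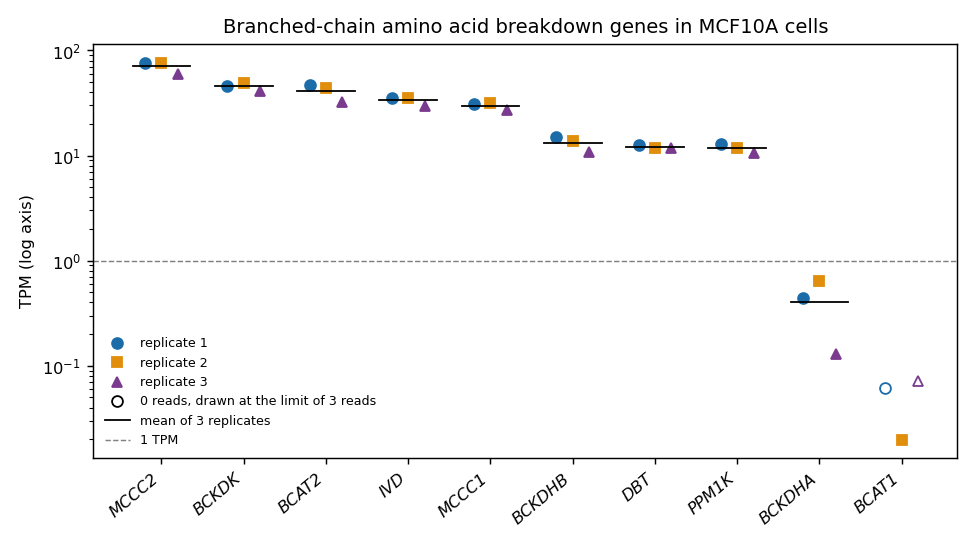
TPM of each gene in each of the 3 replicates on a log axis, ordered by the mean, with a bar at the mean (not drawn for BCAT1). Open symbols stand at the limit of 3 reads for replicates with 0 reads, and BCKDHA and BCAT1 are the genes under the dashed line at 1 TPM.

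The aminotransferase step was represented by BCAT2, with next to no reads on BCAT1. BCAT2 (ENSG00000105552, chr19:48795062-48811029, minus strand), the mitochondrial enzyme, was at 46.8 TPM in replicate 1 (555 reads), 44.4 TPM in replicate 2 (541 reads) and 32.0 TPM in replicate 3 (323 reads), with a mean of 41.1 ± 7.94 TPM (SD, n = 3). Its level was above that of 80.3% of protein-coding genes. BCAT1 (ENSG00000060982, chr12:24810024-24949101, minus strand), the cytosolic enzyme, had 0 reads in replicates 1 and 3 and 1 read in replicate 2, where it stood at 0.0198 TPM. A limit of 3 reads over its 9303 bases of length corresponds to 0.0612 TPM in replicate 1 and 0.0719 TPM in replicate 3. Exact 95% Poisson intervals of the count of 0 reach up to 0.0752 TPM in replicate 1 and 0.0884 TPM in replicate 3 (counting error only).
Summed over the replicates, BCAT2 had 1419 reads and BCAT1 had 1. Per base this is a ratio of 5869.7, with an exact 95% interval from 1052 to 232002 that covers counting error only. Neither gene shares a base of its canonical transcript with another gene on the same strand, and neither holds a stretch of 50 bases that recurs exactly in a transcript of another gene. The longest run of bases identical in both canonical transcripts is 12 bases long, and it is shown since it marks how far reads of both genes can be told apart.
Longest run in both BCAT1 and BCAT2: aaatgacacaga

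Promoter windows from RefSeq (GRCh38.p14), from 250 bases before to 50 bases after a start, were found for 9 of the 10 genes, and BCAT2 had no entry. The window used for each gene was the one at the start nearest to that of the canonical transcript. They were searched for CACGTG, the E-box that MYC-family factors bind and that reads the same on both strands, and it occurred in 7.26% of all 35116 windows. It occurred in the windows used for BCAT1, MCCC1 and MCCC2, that is, in the gene with the fewest reads and in both subunits of methylcrotonyl-CoA carboxylase. BCAT1 had 5 windows at different starts, of which 1 held the E-box, and MCCC1 had 3, of which 2 held it. MCCC2 had 1 window. The E-box began at base 15 of the transcript in BCAT1, 167 bases before the start in MCCC1 and 63 bases before the start in MCCC2. CpG dinucleotides numbered 23 in the BCAT1 window, above the median of 14 over all windows and equal to the 23 in that of IVD, a gene at 33.5 TPM. CCAAT, a common promoter element searched on both strands, was found in 6 of the 9 windows and in 34.6% of all windows. Across the 9 windows the CpG count ranged from 13 in BCKDHA to 30 in PPM1K. The 3 of the windows used that hold the E-box are printed from 250 bases before to 30 bases after the start, with the E-box in capitals, at chr12:24949072-24949351 (minus strand) for BCAT1, chr3:183099467-183099746 (minus strand) for MCCC1 and chr5:71587090-71587369 (plus strand) for MCCC2.
BCAT1: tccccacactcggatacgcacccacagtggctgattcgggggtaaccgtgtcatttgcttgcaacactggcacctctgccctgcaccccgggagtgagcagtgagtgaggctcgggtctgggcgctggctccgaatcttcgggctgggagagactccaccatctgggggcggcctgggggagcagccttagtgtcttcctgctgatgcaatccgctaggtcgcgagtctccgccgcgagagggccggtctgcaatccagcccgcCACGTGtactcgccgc
MCCC1: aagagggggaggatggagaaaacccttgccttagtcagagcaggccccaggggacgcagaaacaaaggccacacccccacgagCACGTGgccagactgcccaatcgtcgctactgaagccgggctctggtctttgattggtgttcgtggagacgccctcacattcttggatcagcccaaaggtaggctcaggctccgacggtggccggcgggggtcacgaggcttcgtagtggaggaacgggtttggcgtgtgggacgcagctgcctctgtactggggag
MCCC2: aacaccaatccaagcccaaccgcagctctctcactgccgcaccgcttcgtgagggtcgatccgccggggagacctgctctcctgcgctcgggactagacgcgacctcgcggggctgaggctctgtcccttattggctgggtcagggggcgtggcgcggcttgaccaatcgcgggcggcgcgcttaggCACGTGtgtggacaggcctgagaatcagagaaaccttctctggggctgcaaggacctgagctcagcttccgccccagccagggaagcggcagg

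The decarboxylase component of the dehydrogenase complex showed very unequal values for its 2 subunits. BCKDHB (ENSG00000083123, chr6:80106647-80346270, plus strand), the beta subunit, was at 15.1, 13.7 and 10.9 TPM, from 292, 271 and 179 reads, with a mean of 13.2 ± 2.15 TPM (SD, n = 3). BCKDHA (ENSG00000248098), the alpha subunit that carries the phosphorylation site, was at 0.437, 0.638 and 0.128 TPM from 4, 6 and 1 reads, with a mean of 0.401 ± 0.257 TPM (SD, n = 3). Exact 95% Poisson intervals of these counts reach from 0.119 to 1.12 TPM in replicate 1, from 0.234 to 1.39 TPM in replicate 2 and from 0.00325 to 0.716 TPM in replicate 3. Within each library BCKDHB was the higher, by 34.6-fold, 21.4-fold and 84.9-fold.
The genes in the map of the BCKDHA locus were read beside this value. ENSG00000255730, the gene that shares its exons, had 0 reads in every replicate, and TMEM91, which holds the other 337 of that gene's 1960 canonical bases, had 5, 20 and 6 reads. How reads on shared exons were treated is not given in the sources used here, and its part in the value of BCKDHA was not tested. A low value of BCKDHA in this table is thus no measurement of a lack of expression. No value in the table says where on BCKDHA its 11 reads fell. If all of them fell on the 119 unshared bases of the canonical transcript, they would correspond to 6.38, 9.31 and 1.87 TPM, with a mean of 5.85 ± 3.74 TPM (SD, n = 3). Under that assumption BCKDHB was 2.72-fold higher and the BCKDHA mean was above the cutoff. If they fell on the 591 unshared bases of all BCKDHA transcripts, an alternative chosen after the values were seen, the mean was 1.18 TPM, with 1.28, 1.87 and 0.377 TPM in the replicates, so that replicate 3 lay below the cutoff. Sharing of this extent was found in few genes: 839 of 20046 protein-coding genes (4.19%) overlapped other genes on the same strand over 90% or more of their canonical transcript. Of these 839 genes 90.8% were below 1 TPM, and of the 17057 protein-coding genes with no shared base 41.5% were. In the first set 566 genes had 0 reads, and in the second 4308. The sets were not matched in any other trait, and whether sharing lowers a value was not tested. The other 9 genes described here share no base on the same strand, and overlap with genes on the opposite strand was not counted. Stretches of 50 or more bases that recur exactly in transcripts of other genes cover from 1.01% to 1.63% of the canonical transcripts of PPM1K, IVD, DBT and MCCC2. They cover none of the remaining 5.

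DBT (ENSG00000137992, chr1:100186919-100249834, minus strand), the core of the complex, was at 12.6, 11.9 and 11.7 TPM from 718, 696 and 567 reads. Its mean was 12.1 ± 0.479 TPM (SD, n = 3). In deposited TPM its SD on the log2(TPM + 1) scale was 0.052, the lowest of the 8 genes above 1 TPM, whereas the median over the 8 genes was 0.136 and that over all 15632 genes expressed by the 1 TPM cutoff was 0.190. This place depended on the scaling: with TPM scaled to protein-coding genes DBT was at 13.8, 13.3 and 14.7 TPM, a wider relative spread than that of IVD, at 38.4, 39.5 and 37.5 TPM. DBT and BCKDHB could not be told apart, with a mean log2 ratio within a library of -0.12 ± 0.20 (SD, n = 3) and BCKDHB the higher in 2 of 3 libraries. DLD, the component shared with pyruvate and oxoglutarate dehydrogenase, was at 100.3, 80.0 and 85.2 TPM. It was 7.94-fold, 6.71-fold and 7.27-fold above DBT in the same libraries.

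For the pair that controls the complex, the kinase was higher than the phosphatase in every library. BCKDK (ENSG00000103507, chr16:31106107-31112791, plus strand), which inactivates the complex, was at 46.2, 49.2 and 40.8 TPM from 621, 680 and 466 reads, with a mean of 45.4 ± 4.30 TPM (SD, n = 3). PPM1K (ENSG00000163644, chr4:88257620-88284769, minus strand), which reactivates it, was at 12.8, 11.8 and 10.5 TPM from 424, 404 and 296 reads, with a mean of 11.7 ± 1.15 TPM (SD, n = 3). The ratio of BCKDK to PPM1K was 3.62, 4.16 and 3.89 in replicates 1, 2 and 3, a mean log2 ratio of 1.96 ± 0.10 (SD, n = 3). It was 4.89 with canonical transcript lengths, since the length behind the deposited values is that of the longest transcript, 2549 bases for BCKDK, whose canonical transcript has 2036.
The exact two-sided sign-flip permutation test over 3 libraries cannot give a p below 0.25, and this was the value for 9 of the 10 ratios that could be formed within a library, in which all 3 libraries had the same order.

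In the leucine branch, MCCC2 was the highest of the 10 genes, and IVD and MCCC1 followed BCKDK and BCAT2 in the order. IVD (ENSG00000128928, chr15:40405485-40435947, plus strand), the isovaleryl-CoA dehydrogenase, was at 35.2, 35.5 and 29.9 TPM from 863, 894 and 623 reads, with a mean of 33.5 ± 3.16 TPM (SD, n = 3). MCCC1 (ENSG00000078070, chr3:183015218-183116075, minus strand), the biotin-bearing subunit of methylcrotonyl-CoA carboxylase, was at 30.7, 31.4 and 26.9 TPM from 462, 486 and 344 reads, with a mean of 29.7 ± 2.45 TPM (SD, n = 3). IVD was above MCCC1 in every library, by a mean log2 ratio of 0.17 ± 0.022 (SD, n = 3), which was 0.046 with canonical transcript lengths.
MCCC2 (ENSG00000131844, chr5:71579531-71658706, plus strand), the carboxyltransferase subunit, was at 75.2, 76.3 and 60.0 TPM from 2192, 2285 and 1488 reads, with a mean of 70.5 ± 9.10 TPM (SD, n = 3), above 88.3% of protein-coding genes. It was 2.45-fold, 2.43-fold and 2.23-fold above its partner MCCC1 in the 3 libraries. With canonical transcript lengths the ratio was 3.10, since MCCC2 has 43 annotated transcripts, the longest giving a length of 5530 bases and the canonical one 3624. PCCA and PCCB, the equivalent subunits of propionyl-CoA carboxylase, were at 19.8 ± 1.30 and 16.0 ± 2.51 TPM (SD, n = 3 each), and their order turned over with canonical transcript lengths, where PCCB was 2.72-fold higher.

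**Figure D3:**
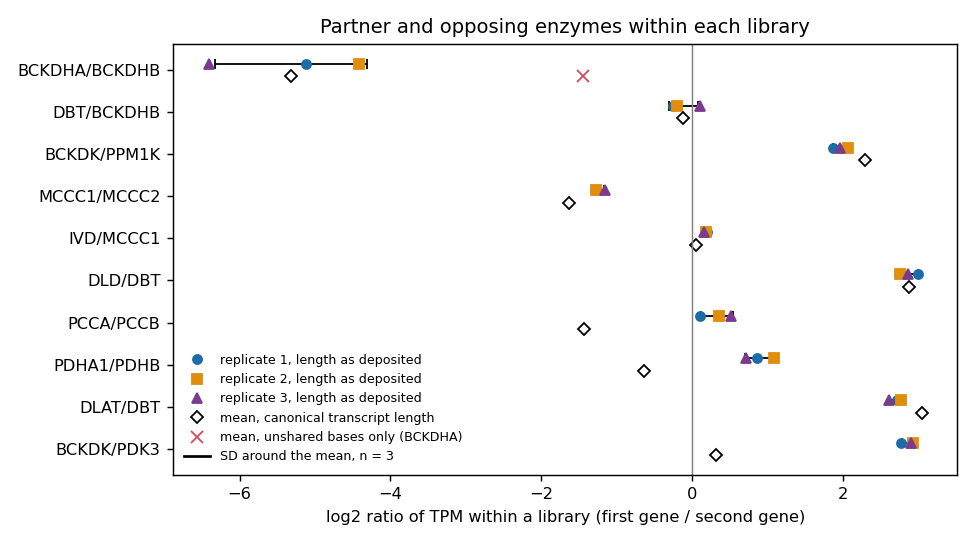
Log2 ratio of TPM between 2 genes of the same library, with filled symbols for the 3 replicates and bars for the SD around the mean. Open diamonds give the mean with canonical transcript lengths, which kept BCKDK above PPM1K and MCCC2 above MCCC1 but turned PCCA/PCCB and PDHA1/PDHB over. The cross gives BCKDHA/BCKDHB if all BCKDHA reads fell on the unshared bases of its canonical transcript.

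The replicates were compared to see whether the spread of each gene exceeded counting error. In a chi-square test of reads against equal TPM in the 3 libraries, which compares libraries and not conditions, 5 of the 8 genes tested passed an adjusted p of 0.05 (Benjamini-Hochberg over 15802 genes with at least 15 reads). The share called was 54.3% over all genes tested and 76.5% over the 6313 protein-coding genes with a read total in the range of these 8 genes, from 742 to 5965. The adjusted p was 6.10e-13 for MCCC2, 5.44e-07 for BCAT2, 0.00372 for IVD, 0.00580 for BCKDHB and 0.015 for BCKDK. For PPM1K, MCCC1 and DBT it was 0.0588, 0.106 and 0.438.
All 8 genes were lowest in replicate 3, as were 84.3% of the 8364 protein-coding genes whose mean reached 10 TPM. Between replicates 3 and 1, the median log2 ratio was -0.26 over the 8 genes and -0.25 over those 8364 genes. With TPM scaled to protein-coding genes, which held 91.5%, 89.8% and 79.6% of TPM in replicates 1, 2 and 3, these medians were -0.06 and -0.05. On that scale 5 of the 8 genes were lowest in replicate 3, where the share over the same protein-coding genes was 48.4%, and 2 of the 8 passed the chi-square test, MCCC2 and BCAT2, with adjusted p-values of 0.00651 and 0.00755. BCAT2 thus stood lowest in replicate 3 on both scales, with a log2 ratio to replicate 1 of -0.55 in TPM and -0.35 after scaling. DBT, BCKDK and MCCC1 stood higher in replicate 3 than in replicate 1 after scaling, by log2 ratios of 0.093, 0.020 and 0.0086. Between replicates 1 and 2 none of the 8 genes passed the chi-square test, adjusted or at an unadjusted p under 0.05, while 21.3% of all genes did after adjustment.

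**Figure D4:**
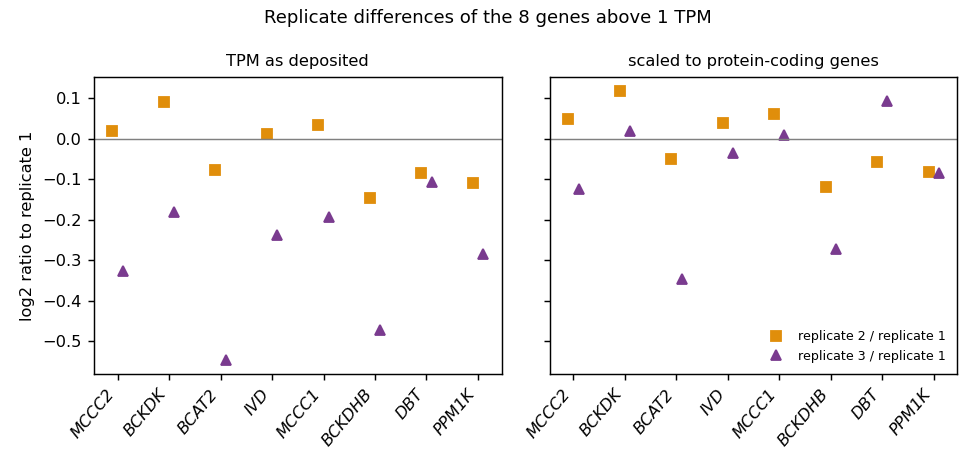
Log2 ratio of replicates 2 and 3 to replicate 1 for the 8 genes above 1 TPM, with deposited TPM on the left and TPM scaled to protein-coding genes on the right. All triangles of replicate 3 lie below 0 on the left, and on the right BCAT2 and BCKDHB lie lowest at -0.35 and -0.27.

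The rest of the pathway was read from 35 other genes in 4 lists, and 34 of them reached 1 TPM in the mean. All 16 genes of the later steps were above it, from ALDH6A1, the methylmalonate semialdehyde dehydrogenase of valine breakdown, at 8.74 ± 1.50 TPM to ECHS1, the enoyl-CoA hydratase shared with fatty acid oxidation, at 208 ± 18.7 TPM (SD, n = 3 each). Their median of 20.3 TPM lay beside a median of 21.5 TPM for the 10 genes described here. ACADSB and ACAD8, which act at the step of IVD in the isoleucine and valine branches, were at 13.0 ± 1.78 and 20.7 ± 0.822 TPM (SD, n = 3 each), both below IVD in every replicate. All 10 cofactor and electron partners were at or above 4.40 TPM, among them HLCS, which attaches biotin to MCCC1, at 17.4 ± 1.73 TPM and LIAS, which makes the lipoyl group of DBT, at 12.3 ± 1.68 TPM (SD, n = 3 each). ETFA and ETFB, the subunits of the protein that takes electrons from IVD, were at 117 ± 4.80 and 11.8 ± 1.52 TPM (SD, n = 3 each). With canonical transcript lengths they were at 111 and 39.3 TPM. Of the canonical transcript of ETFB, 38.6% is shared with exons of other genes on the same strand.
Of the 6 transport genes, SLC7A5 and SLC3A2, which together import leucine across the plasma membrane, were at 572 ± 82.2 and 261 ± 24.8 TPM (SD, n = 3 each). SLC25A44, the mitochondrial carrier of branched-chain amino acids, was at 31.8 ± 2.80 TPM (SD, n = 3), and SLC43A2 was lowest at 1.62 ± 0.340 TPM (SD, n = 3). Among the control genes, ACLY, a further substrate of BCKDK and PPM1K, was at 480.4 ± 47.6 TPM (SD, n = 3). KLF15, a transcription factor known to induce the pathway, was at 3.86 ± 1.03 TPM (SD, n = 3). MLXIPL, a carbohydrate-responsive factor that can act on BCKDK and PPM1K, was the 1 gene below the cutoff, at 0.189 ± 0.116 TPM (SD, n = 3) from 9 reads in all.

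**Figure D5:**
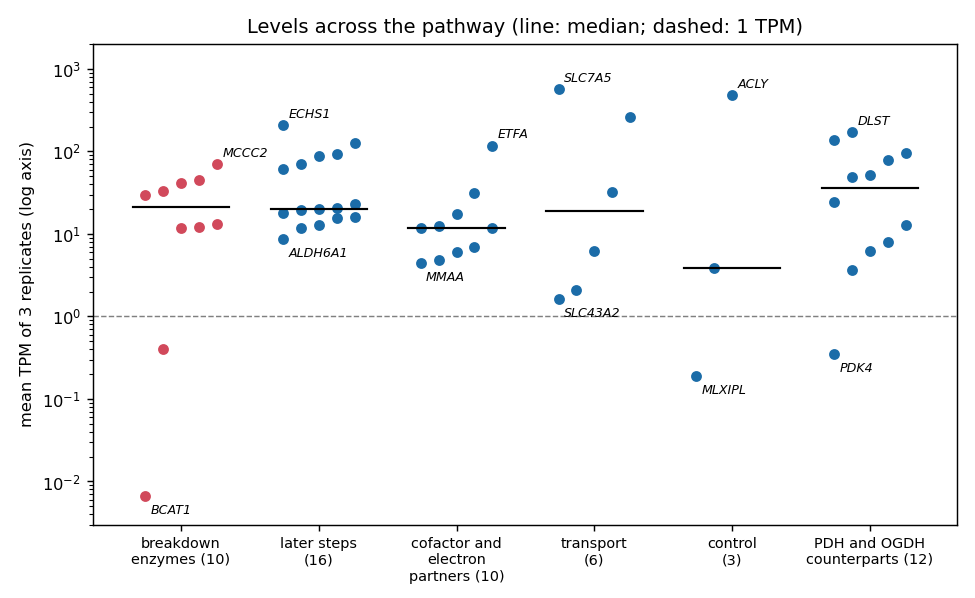
Mean TPM of 3 replicates on a log axis for the 10 breakdown enzymes (red) and for the other genes of the pathway and of related complexes (blue), 1 point per gene, with the median of each list as a line. The lowest and the highest gene of each list are named, and BCAT1, BCKDHA, MLXIPL and PDK4 lie below the dashed line at 1 TPM.

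The pyruvate dehydrogenase complex is built from the same kinds of component, and its genes were set beside those of the branched-chain complex within each library. DLAT, the counterpart of DBT, was at 78.2 ± 6.12 TPM (SD, n = 3), 6.52-fold, 6.81-fold and 6.07-fold above DBT in replicates 1, 2 and 3, and DLST of the oxoglutarate complex was at 172 ± 9.79 TPM (SD, n = 3). PDHB, the counterpart of BCKDHB, was at 51.4 ± 3.86 TPM against 13.2 ± 2.15 TPM for BCKDHB (SD, n = 3 each). With canonical transcript lengths PDHB was at 124.7 TPM and BCKDHB at 10.8 TPM. PDHA1 was at 94.9 ± 8.79 TPM (SD, n = 3), and no base of it is shared on the same strand, unlike BCKDHA. The order of PDHA1 and PDHB turned over with canonical transcript lengths, from 1.84-fold higher PDHA1 to 1.56-fold higher PDHB.
Among the kinases, BCKDK at 45.4 TPM was above each of PDK1, PDK2, PDK3 and PDK4, at 7.89 ± 0.437, 3.61 ± 0.429, 6.25 ± 0.688 and 0.353 ± 0.0706 TPM (SD, n = 3 each), in every replicate. The length behind these values matters here: the ratio of BCKDK to PDK3 was 7.28 as deposited and 1.25 with canonical transcript lengths, since PDK3 has a length of 12708 bases by its longest transcript and a canonical transcript of 1741. With canonical transcript lengths BCKDK was at 46.6 TPM, and PDK1 to PDK4 were at 6.43, 2.94, 37.4 and 0.289 TPM. Each PDK gene was set against BCKDK singly, and their sum was not compared with it. The phosphatases PDP1 and PDP2 were at 12.9 ± 1.19 and 24.3 ± 0.776 TPM (SD, n = 3 each), and PPM1K at 11.7 TPM was below PDP2 in every replicate.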

How the data were processed

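RNA-seq of 3 replicates of MCF10A cells was read from the 1 table the authors deposited, in TPM and with the replicates unpooled. Per the study's methods, quality control, mapping to hg38 and counting were done with the workflow Seq2science, and the submitters' processing notes name fastp, STAR and MultiQC and the builds hg38 and GRCh38.p14. The annotation release, the strand setting and how reads over 2 genes were treated are not given in the sources used here. Columns were assigned by the library names in the labels.

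Reads were recovered from TPM times the length of the longest GENCODE release 44 transcript (1 base less per exon), which gave whole numbers within 0.01 for 100% of values above 0, whereas canonical transcript lengths gave 2.83%. The totals rest on the smallest step being 1 read. The length was found for 62700 of 62754 genes. Shared bases were counted between exons on the same strand. Exact matches of 50 bases were sought with blastn 2.17.0 in all annotated transcripts. The chi-square test ran over all genes with at least 15 reads, with Benjamini-Hochberg adjustment. Read recovery and this test were first tested on simulated data. Genes were named by list: the 10 members, and of the other lists those under 1 TPM, the highest and partners of members. The members and lists were chosen with earlier results of these data known. Analysis ran in Python 3.11.15 with pandas 2.3.3, numpy 2.4.6, matplotlib 3.10.9 and scipy 1.17.1.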

Additional observations from a re-analysis of the deposited data

How the results depend on the processing

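No paired analysis was possible because the series holds a single condition. The count of 8 genes at or above 1 TPM was also 8 at cutoffs of 0.5, 2 and 5 TPM, with the median, under both other scalings, with canonical lengths and without each replicate, and 9 over unshared bases only, where BCKDHA joined if all its reads fell on such bases. The 34 other pathway genes were 33 at a cutoff of 2 TPM and 34 under the other alternatives run. Neighbours that did not overlap numbered 4, and 6 with TPM scaled to protein-coding genes and 5 with canonical lengths.

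The genes whose reads differed between replicates numbered 5, and 2 with protein-coding scaling or with equal shares of reads. When 1 replicate was left out they numbered from 0 (without replicate 3) to 5, and the cause was not tested.

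Ratios depended on gene length. As log2, with canonical lengths and over unshared bases, in this order, BCKDK/PPM1K moved from 1.96 to 2.29 and 2.28, MCCC1/MCCC2 from -1.24 to -1.63 and -1.64, IVD/MCCC1 from 0.17 to 0.046 and 0.053, DLAT/DBT from 2.69 to 3.04 and 3.04, and BCKDK/PDK3 from 2.86 to 0.32 and 0.32. PCCA/PCCB reversed from 0.33 to -1.44 and -1.44, and PDHA1/PDHB from 0.88 to -0.64 and -0.64. None of the genes in these pairs shares a base on the same strand. The second value therefore repeats the first, apart from the 1 base less per exon, and is no separate check. BCKDHA/BCKDHB was -5.31, and -1.44 if all BCKDHA reads fell on the unshared bases of its canonical transcript. A pseudocount of 1 TPM gave -3.35 for BCKDHA/BCKDHB, 2.60 for DLAT/DBT and 2.68 for BCKDK/PDK3. For BCAT1/BCAT2 the mean ratio within a library could be formed only with this pseudocount, and was -5.37. The ratio per base of reads summed over the libraries, a different measure, was -12.52 as log2. Leaving out a replicate gave no row for BCAT1/BCAT2, where 1 read decides the value. The values of BCAT1 and BCKDHA rest on few reads, with 1 and 11 in all, and for BCKDHA the part of shared exons in this was not tested.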
